A study of Mus musculus with 8 samples.

Results

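The genes described here encode the nuclear-made subunits and the assembly factors of respiratory complex I. They were found by their annotated symbol: every symbol that starts with Nduf, plus Ecsit, Acad9, Tmem126b, Timmdc1, Foxred1 and Nubpl, which gave 52 genes of 19505 named on the array, each with 1 probe set. The series holds 8 whole-transcript arrays of splenic cDC1 from naive wild-type C57BL/6 mice. cDC1 are dendritic cells known for cross-presenting antigen, which primes CD8 T cells. Sorting gave a TMRM/MG-high fraction (4 arrays) and a TMRM/MG-low fraction (4 arrays). TMRM is a dye that enters mitochondria with their membrane potential, and the labels do not spell out MG. The animals carry no transgene or deletion that the labels name, and their age and number per sample are not given in the sources used here. No label says that replicates came from separate animals or sorts, so the p-values reflect the spread among these arrays alone, part of which may be technical.

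Complex I takes electrons from NADH, passes them along iron-sulphur clusters to ubiquinone, and pumps protons across the inner mitochondrial membrane, and so helps to build the potential that TMRM follows. It is L-shaped. Its matrix arm holds the NADH site and the clusters, and its membrane arm holds the pumps, with a proximal section beside the matrix arm and a distal section at the far end. Core subunits carry out the chemistry and are shared with bacteria, accessory subunits surround and stabilise them, and assembly factors help to build the complex but are absent from the finished enzyme. The core subunits made from the mitochondrial genome had no named probe set in the annotation used and are not analysed here, and neither is Ndufb1, a distal accessory subunit.

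Of the 52 genes, 20 rose in TMRM/MG-high cells and 0 fell by limma at an adjusted p under 0.05 over all 22206 probe sets, and 46 of 52 differences were above 0. Among all probe sets, 5.28% were called higher and 2.96% lower, so 38.5% of these genes rose against 5.28% of all. All 52 genes stayed when probe sets under the negative control median on more than 4 arrays were left out as dim. Of the 16678 probe sets kept, limma then called 8.13% higher and 4.3% lower, against 24 and 0 of the 52 genes. The median log2 difference, high minus low, was 0.30 over the 52 genes and 0.0093 over all probe sets. At an unadjusted p under 0.05, limma found 36 of the 52 higher and 1 lower, against 15.3% and 10.1% of all probe sets. The 4 high arrays lay wholly above the 4 low arrays in 29 of the 52 genes and wholly below them in 1, against 9.7% and 6.37% of all probe sets. All values here are relative to the other transcripts on an array, since the authors' normalization removes a shift shared by most of them. In RNA from pooled cells, more cells expressing a gene and more of its RNA per cell cannot be told apart.

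The count of 20 depends on 6 of the 8 arrays. It was 1 without high replicate 2 and 2 without high replicate 3, against 0.824% and 1.15% of all probe sets. Without high replicate 4 or low replicate 1, 2 or 4 it was 3 each, against 1.78%, 1.65%, 1.97% and 2.25%. It was 23 without high replicate 1 and 24 without low replicate 3, against 6.11% and 7.57%. With all arrays the share of all probe sets was 5.28%. The direction did not rest on any 1 array. In each of these 8 omissions 46 to 48 of the 52 differences stayed above 0 and the median stayed between 0.25 and 0.35. Quantile normalization over the tested probe sets gave 10 rises among the 52, against 3.84% of all probe sets, and centring on array medians gave 13, against 4.2%. Over all probe sets the share of calls that were higher was 64.1% as reported, 49.8% after that quantile normalization and 57.2% after centring. Control probe sets also differed between the fractions. The median of the positive controls was 10.38 to 10.49 in high arrays, against 10.21 to 10.37 in low arrays. That is the direction of most of the 52 genes, and its part in their differences was not tested. Hybridization controls ran the other way, with means of 11.74 to 11.9 in high arrays, against 12.3 to 12.61 in low arrays. The mean of the poly-A spike-ins was 5.99 to 6.96 in the high arrays and 7.27 to 7.85 in the low arrays, and GC-rich background probe sets averaged 8.76 to 8.82 in high arrays, against 9.17 to 9.43 in low arrays. With the spike-in mean as a covariate limma called 0 of the 52 genes (1 higher and 1 lower at an unadjusted p under 0.05) and 0 of all probe sets, and the median difference of the 52 was 0.086. Spike-in level and fraction do not overlap in these arrays, so they cannot be told apart.

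**Figure D1:**
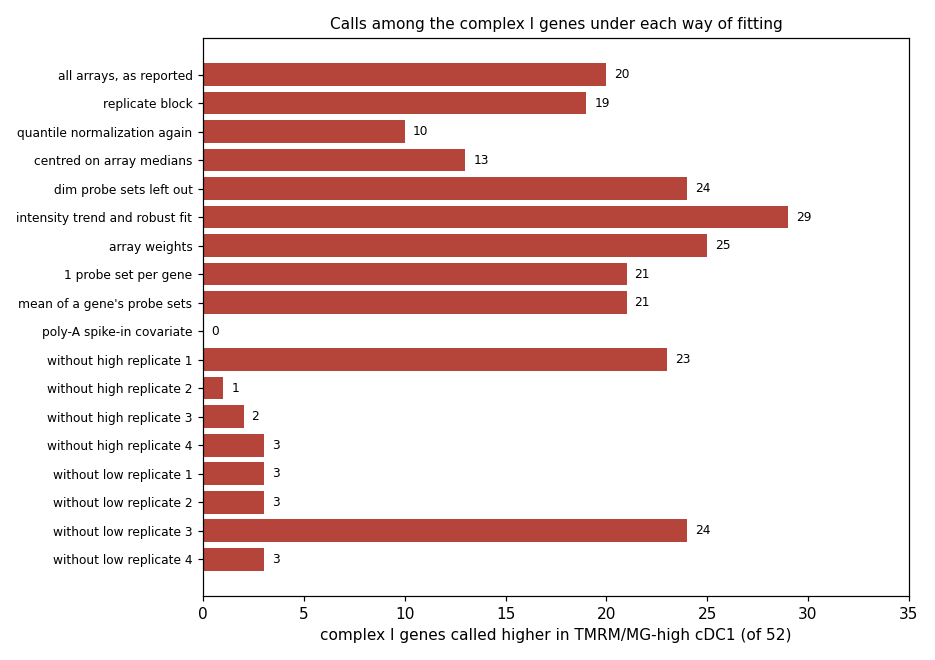
Number of the 52 complex I genes called higher in TMRM/MG-high cDC1 (limma adjusted p under 0.05, horizontal axis) under each way of fitting, one bar each. The count is 20 with all arrays and lies between 0, where the spike-in mean is a covariate, and 29, where the variance prior follows intensity.

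Letters of factor motifs were searched in the RefSeq promoters of these genes (GRCm38.p6, 250 bases before and 50 after the annotated start, both strands). In mammals, nuclear genes of the respiratory chain are known as targets of the factors NRF1, YY1 and the ETS family member GABP. A promoter was given for 46 of the 52 genes, 48 promoters in all; Acad9, Ndufa2, Ndufa4l2, Ndufaf6, Ndufb9 and Ndufs1 had none in the table. The YY1 letters AAGATGGC stood in 9 of 48, or 18.8%, against 2.75% of all 32851 promoters. The ETS letters CCGGAAG stood in 8 of 48, or 16.7%, against 8.86%, and the NRF1 centre CGCATGCG, which reads the same on either strand, in 4 of 48, or 8.33%, against 1.87%. None of the 3 motifs contains another. The member promoters were also richer in bases G and C, with a median of 59.3% against 52.7% for all promoters and 20.5 CpG sites against 7, which bears on how often GC-rich letters occur. A match is a description of letters and not a binding site.

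Windows around the YY1 matches are shown because these letters stood out most from the rate over all promoters; the matched letters are in capitals. All 9 YY1 matches lay within the 50 bases after the start and on the gene's own strand. The 5 that belong to genes called higher in the high fraction were these, 30 bases each on the gene's strand.
Ndufa9 (chr6:126849097-126849126, minus strand): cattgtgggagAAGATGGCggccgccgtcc
Ndufs6 (chr13:73328433-73328462, minus strand): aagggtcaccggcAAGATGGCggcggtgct
Ndufc1 (chr3:51408915-51408944, minus strand): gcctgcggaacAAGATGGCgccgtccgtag
Tmem126b (chr7:90475960-90475989, minus strand): cgtgaggcgctAAGATGGCggcgtcccagc
Ndufaf8 (chr11:120098933-120098962, plus strand): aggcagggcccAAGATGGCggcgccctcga
The other 4 belong to genes that were not called.
Ndufs7 (chr10:80249462-80249491, plus strand): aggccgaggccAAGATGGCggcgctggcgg
Ndufs4 (chr13:114388045-114388074, minus strand): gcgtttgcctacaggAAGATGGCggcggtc
Ndufa3 (chr7:3617384-3617413, plus strand): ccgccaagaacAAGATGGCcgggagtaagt
Ndufb8 (chr19:44555393-44555422, minus strand): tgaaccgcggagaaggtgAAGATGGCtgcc

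The NRF1 centre was found in 4 genes, none of them called: the proximal subunits Ndufa8 and Ndufa11 and the assembly factors Ndufaf4 and Ndufaf5. Their windows are shown as the full set of matches to this motif.
Ndufa8 (chr2:36049329-36049358, minus strand): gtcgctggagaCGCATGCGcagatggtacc
Ndufa11 (chr17:56717692-56717721, plus strand): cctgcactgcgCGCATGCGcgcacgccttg
Ndufaf4 (chr4:24897960-24897989, plus strand): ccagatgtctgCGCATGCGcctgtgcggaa
Ndufaf5 (chr2:140170652-140170681, plus strand): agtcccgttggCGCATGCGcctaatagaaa
Among the promoters of called genes the NRF1 centre stood in 0 of 19, the ETS letters in 3 and the YY1 letters in 5, and among those of uncalled genes they stood in 4, 5 and 4 of 29. These counts are small and were not tested.

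**Figure D2:**
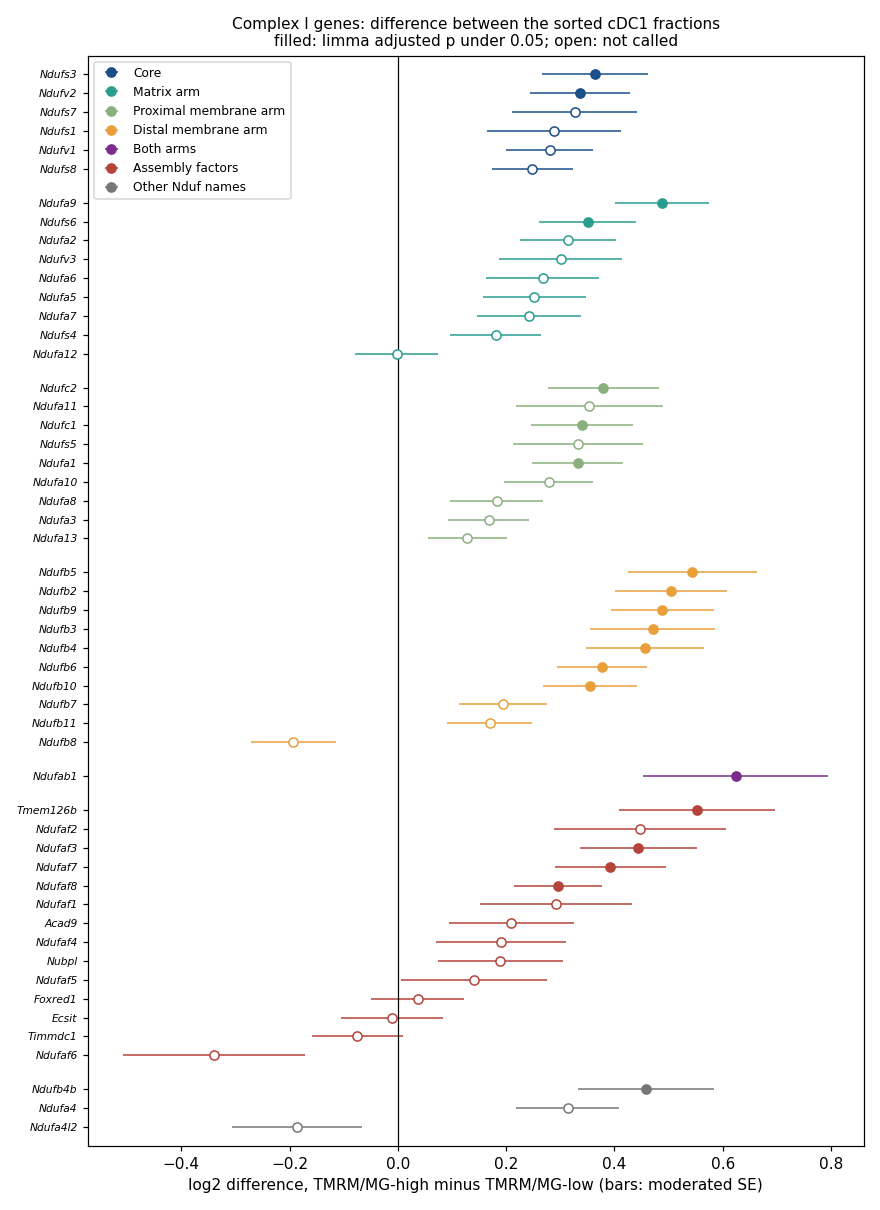
Log2 difference, TMRM/MG-high minus TMRM/MG-low (horizontal axis), of each of the 52 complex I genes in blocks by class, with the moderated standard error as bars; filled points have a limma adjusted p under 0.05. Of the 52 points, 46 lie right of 0, the distal membrane arm block holds 7 filled points of 10, and the 4 points farthest left are Ndufaf6, Ndufb8, Ndufa4l2 and Timmdc1.

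All 6 measured core genes had differences between 0.25 and 0.36, with a median of 0.31, and 2 of them rose in the high fraction: Ndufs3, part of the module that reduces ubiquinone, and Ndufv2, an iron-sulphur subunit next to the NADH site. Log2 signals of Ndufs3 were 11.94, 12.15, 12.13 and 12.08 in high replicates 1 to 4, against 11.47, 11.79, 11.84 and 11.75 in low replicates 1 to 4. Ndufv2 read 10.66, 10.88, 10.88 and 10.88 in the high arrays, against 10.36, 10.60, 10.40 and 10.60 in the low arrays. In both genes high replicate 1 was the lowest high array and low replicate 1 the lowest low array, and the groups did not overlap. The differences were 0.36 (SE 0.098, limma adjusted p = 0.0429) for Ndufs3 and 0.34 (SE 0.093, adjusted p = 0.047) for Ndufv2, which is 1.29-fold and 1.26-fold.

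Of the 4 core genes that did not pass, 3 had high arrays wholly above the low arrays, as had 9.7% of all probe sets. Ndufv1, which binds NADH and the flavin, averaged 10.82 ± 0.061 in high arrays, against 10.54 ± 0.084 in low arrays (SD over 4 arrays; difference 0.28, limma adjusted p = 0.0522). Ndufs8, which carries clusters on the way to ubiquinone, averaged 11.27 ± 0.051 in high arrays, against 11.02 ± 0.030 in low arrays (difference 0.25, limma adjusted p = 0.0604). Ndufs7, the subunit with the last cluster before ubiquinone, differed by 0.33 (limma adjusted p = 0.102). Its low replicate 1 read 8.49, against 8.94 to 9.02 in the other 3 low arrays, which made its spread wide. Ndufs1, the largest core subunit, differed by 0.29 (adjusted p = 0.17), and its high replicate 1, at 8.20, lay within the low arrays. The 2 core calls were lost after quantile normalization or centring (0 of 6 each). The count was 4 of 6 with dim probe sets left out, with array weights, with an intensity trend or without high replicate 1. Over all probe sets these settings called 8.13%, 7.53%, 8.78% and 6.11% higher, against 5.28% as reported. The core count was 0 without high replicate 2, 3 or 4 or low replicate 1, 2 or 4. The share of all probe sets called higher was then 0.824% to 2.25%.

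**Figure D3:**
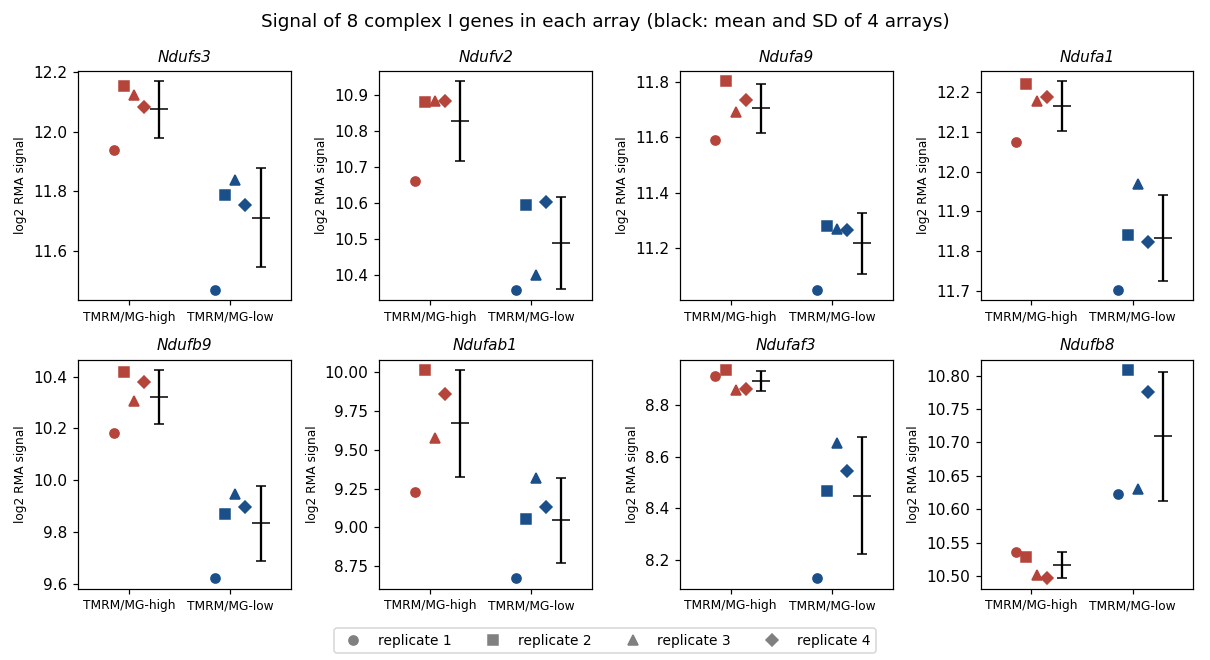
Log2 signal (vertical axis, scaled per panel) of 8 complex I genes in each array of TMRM/MG-high and TMRM/MG-low cDC1, with the mean and SD of 4 arrays in black and a marker shape per replicate number. The 4 high arrays lie above the 4 low arrays for Ndufs3, Ndufv2, Ndufa9, Ndufa1, Ndufb9 and Ndufaf3, overlap them for Ndufab1, and lie below them for Ndufb8.

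In the matrix arm, 2 of 9 accessory subunits rose in the high fraction, the median difference was 0.27, and 8 of 9 differences were above 0. Ndufa9, which binds a nucleotide and sits where the arms join, had the smallest p of all 52 genes. It read 11.59, 11.80, 11.69 and 11.73 in the high arrays, against 11.05, 11.28, 11.27 and 11.27 in the low arrays. The groups were apart by more than the spread within either, and the difference was 0.49 (SE 0.087, limma adjusted p = 0.0112), or 1.40-fold. Ndufa9 was the only one of the 20 called genes to keep its call in all 8 omissions of an array, with differences of 0.43 to 0.53 and adjusted p of at most 0.0416. It was not called with the spike-in covariate.

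Ndufs6, a zinc-binding subunit put in late during assembly, read 11.09, 11.31, 11.28 and 11.09 in the high arrays, against 10.76, 10.87, 10.97 and 10.77 in the low arrays. The groups did not overlap, and the difference was 0.35 (SE 0.090, limma adjusted p = 0.037). Its call was lost after quantile normalization. Ndufa2, a small subunit with a thioredoxin-like fold, had 12.57, 12.77, 12.72 and 12.71 in the high arrays, against 12.21, 12.43, 12.50 and 12.37 in the low arrays. It was separated too and just missed the threshold (0.31, SE 0.089, limma adjusted p = 0.0509). Ndufa5 showed 12.01, 12.05, 12.05 and 12.06 in the high arrays, against 11.56, 11.79, 11.98 and 11.84 in the low arrays, and differed by 0.25 (limma adjusted p = 0.121). Its high arrays lay close together and its low arrays spread widely.

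The other matrix arm subunits were not called either. Ndufv3, which sits beside the NADH module, differed by 0.30, Ndufa6, which binds the acyl carrier protein, by 0.27, Ndufa7 by 0.24 and Ndufs4, a subunit whose loss causes Leigh syndrome in people, by 0.18, with limma adjusted p of 0.122 to 0.205. Each had at least 1 high array within the low range. Ndufa12, the subunit that takes the place of the assembly factor Ndufaf2, read 11.84 ± 0.063 in high arrays, against 11.84 ± 0.045 in low arrays (SD over 4 arrays). Its difference of -0.0024 had a 95% interval of -0.17 to 0.16.

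In the proximal section of the membrane arm, 3 of 9 accessory subunits rose, the median difference was 0.33, and all 9 differences were above 0. The 3 were Ndufa1, a small single-span subunit encoded on the X chromosome, and Ndufc1 and Ndufc2, which lie beside the pump subunit ND2. Ndufa1 read 12.08, 12.22, 12.18 and 12.19 in the high arrays, against 11.70, 11.84, 11.97 and 11.82 in the low arrays (difference 0.33, SE 0.084, limma adjusted p = 0.0343). Ndufc2 had 12.03, 12.28, 12.23 and 12.16 in the high arrays, against 11.57, 11.82, 12.002 and 11.78 in the low arrays (0.38, SE 0.10, limma adjusted p = 0.0428). Ndufc1 showed 11.23, 11.43, 11.22 and 11.25 in the high arrays, against 10.74, 11.01, 11.08 and 10.94 in the low arrays (0.34, SE 0.094, limma adjusted p = 0.0472). None of the 3 overlapped between the fractions, and in each the lowest low array was replicate 1. All 3 calls were lost after quantile normalization, and centring kept 1 of them, Ndufa1.

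Ndufa10, which resembles nucleoside kinases, had 11.73, 11.88, 11.85 and 11.77 in the high arrays, against 11.45, 11.54, 11.65 and 11.47 in the low arrays. It was separated without passing (0.28, SE 0.082, limma adjusted p = 0.0582). Ndufa11 differed by 0.35 and Ndufs5 by 0.33, but with wide spreads in both fractions (limma adjusted p = 0.13 and 0.108). Ndufa8 differed by 0.18, Ndufa3 by 0.17 and Ndufa13, also known as GRIM-19, by 0.13, with limma adjusted p from 0.188 to 0.3. Of these, Ndufa3 and Ndufa13 had high arrays wholly above the low arrays, as had 9.7% of all probe sets. Ndufa13, which had the highest mean of the 52, read 12.61, 12.64, 12.64 and 12.64 in the high arrays, against 12.48, 12.46, 12.56 and 12.53 in the low arrays. It averaged 12.63 ± 0.014 in high arrays, against 12.50 ± 0.044 in low arrays (SD over 4 arrays), so its small difference came with a small spread.

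In the distal section of the membrane arm, 7 of 10 accessory subunits rose (Ndufb2, Ndufb3, Ndufb4, Ndufb5, Ndufb6, Ndufb9 and Ndufb10), and the median difference was 0.42. The same 7 of 10 count came after quantile normalization, after centring, with the replicate block, with dim probe sets left out and with array weights. It was 0 to 2 on leaving out any of the 6 arrays that lower the count of all 52. In those omissions 0.824% to 2.25% of all probe sets were called higher. Whether the distal class differs from the other classes was not tested.

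Ndufb9, which binds a copy of the acyl carrier protein at the tip of the arm, read 10.18, 10.42, 10.30 and 10.38 in the high arrays, against 9.62, 9.87, 9.95 and 9.90 in the low arrays. The difference was 0.49 (SE 0.095, limma adjusted p = 0.0148), and the call was kept in 7 of 8 omissions. Ndufb2 had 11.62, 11.85, 11.80 and 11.73 in the high arrays, against 10.997, 11.32, 11.44 and 11.23 in the low arrays (0.50, SE 0.10, limma adjusted p = 0.0173; kept in 6 of 8). Both are small subunits of the membrane arm whose groups stood well apart. Ndufb5 showed 10.86, 11.15, 11.09 and 11.17 in the high arrays, against 10.27, 10.52, 10.82 and 10.49 in the low arrays (0.54, SE 0.12, limma adjusted p = 0.0216). Low replicate 3 of Ndufb5 lay just under the lowest high array. Ndufb6 read 11.96, 12.08, 11.92 and 12.04 in the high arrays, against 11.54, 11.59, 11.76 and 11.60 in the low arrays (0.38, SE 0.083, limma adjusted p = 0.0224).

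Ndufb3 (0.47), Ndufb4 (0.46) and Ndufb10 (0.35) rose too, with limma adjusted p of 0.0288 to 0.0308 and no overlap between the fractions. The annotation also names Ndufb4b, a copy of Ndufb4. It read 10.95, 11.50, 11.18 and 11.38 in the high arrays, against 10.56, 10.85, 10.94 and 10.84 in the low arrays (0.46, SE 0.13, limma adjusted p = 0.0449). Near-identical copies can share probes, so the value of Ndufb4b is uncertain to that extent, and so is that of Ndufb4. Ndufb7 (0.19) and Ndufb11 (0.17), which is X-linked, did not pass (limma adjusted p = 0.157 and 0.2). Their high arrays lay wholly above their low arrays, as in 9.7% of all probe sets.

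Ndufb8 ran the other way. This membrane subunit, whose protein is often used as a marker of assembled complex I, read 10.54, 10.53, 10.50 and 10.50 in the high arrays, against 10.62, 10.81, 10.63 and 10.78 in the low arrays. Every high array lay below every low array, and it was the only one of the 52 genes to show that. The difference was -0.19 (SE 0.079), with an unadjusted p of 0.0316 and a limma adjusted p of 0.153, so it was not called lower. The gene also holds the YY1 letters, at base 39 after its start.

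Ndufab1, the mitochondrial acyl carrier protein, is present in a copy in each arm and also serves lipoic acid and iron-sulphur cluster synthesis. It had the largest difference of the 52 genes, 0.62 (SE 0.17, limma adjusted p = 0.0451), or 1.54-fold. Its log2 signals were 9.23, 10.01, 9.58 and 9.86 in the high arrays, against 8.67, 9.06, 9.32 and 9.13 in the low arrays. High replicate 1 fell below low replicate 3, so the groups overlapped. Its call was lost after centring and kept in 2 of 8 omissions.

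Assembly factors were mixed. Of 14 measured, 4 rose and 0 fell, 5 had an unadjusted p under 0.05 and a positive difference by limma, and 3 differences were below 0. Their median difference was 0.20, against 0.33 for the 35 subunits, of which 15 rose and 33 were above 0. That contrast is a description and was not tested. It was 0.16 for the assembly factors after quantile normalization, and 0.18 to 0.25 on leaving out an array.

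The 4 that rose act on the matrix arm, or on the first membrane pieces. Ndufaf3, which with Ndufaf4 builds the ubiquinone module, read 8.91, 8.94, 8.86 and 8.86 in the high arrays, against 8.13, 8.47, 8.65 and 8.55 in the low arrays. Its high arrays were tightly grouped above all low arrays (0.44, SE 0.11, limma adjusted p = 0.0306). Ndufaf7, a methyltransferase of the mitochondrial matrix, had 10.62, 10.80, 10.75 and 10.68 in the high arrays, against 10.31, 10.06, 10.48 and 10.45 in the low arrays (0.39, SE 0.10, limma adjusted p = 0.0382). Ndufaf8, a partner of Ndufaf5, showed 9.99, 10.04, 10.04 and 9.98 in the high arrays, against 9.61, 9.67, 9.86 and 9.74 in the low arrays (0.30, SE 0.082, limma adjusted p = 0.047). These 3 did not overlap between the fractions. Of the 4 calls, Ndufaf3 alone was kept after quantile normalization.

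Tmem126b belongs with Ndufaf1, Ecsit and Acad9 to the MCIA complex, which assembles the membrane piece around ND2. It read 7.81, 8.44, 8.21 and 8.34 in the high arrays, against 7.45, 7.54, 7.96 and 7.64 in the low arrays, with an overlap at high replicate 1. The difference was 0.55 (SE 0.14, limma adjusted p = 0.0381). None of its partners was called: Ndufaf1 differed by 0.29 (limma adjusted p = 0.215), Acad9, which is also an acyl-CoA dehydrogenase, by 0.21 (0.28), and Ecsit by -0.011 (0.959), and Timmdc1, which joins the same intermediates, by -0.075 (0.627). The 95% intervals were -0.22 to 0.20 for Ecsit and -0.26 to 0.11 for Timmdc1, so differences of the size seen in Tmem126b lie outside them. The interval of Ndufaf1, -0.0125 to 0.597, holds the difference of Tmem126b. That of Acad9, -0.0406 to 0.46, overlaps the interval of Tmem126b, 0.239 to 0.867. Tmem126b is thus not set apart from Ndufaf1 or Acad9 by these values. Ndufaf1 was also dim, with means of 7.32 in high arrays and 7.03 in low arrays. Its low replicate 1 read 6.74, against a negative control median of 6.72 on that array.

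Among the other factors, Ndufaf2, which holds the place of Ndufa12 until late assembly, differed by 0.45 with wide spreads (SE 0.16, limma adjusted p = 0.104). Ndufaf4 and Nubpl, which delivers iron-sulphur clusters, each differed by 0.19, Ndufaf5, which hydroxylates Ndufs7, by 0.14, and Foxred1 by 0.036, with limma adjusted p of 0.335 to 0.837. Ndufaf6, which acts early in assembly, had the lowest difference of all 52, -0.34 (SE 0.17, limma adjusted p = 0.233). It read 8.97, 9.75, 9.12 and 9.72 in the high arrays, against 9.75, 9.57, 9.69 and 9.90 in the low arrays. Only high replicates 1 and 3 lay below the low arrays.

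The rule by symbol also took in a pair of genes that are no longer counted as complex I. Ndufa4, now assigned to cytochrome c oxidase, read 12.27, 12.31, 12.26 and 12.22 in the high arrays, against 11.69, 12.04, 12.07 and 12.01 in the low arrays (0.31, SE 0.095, limma adjusted p = 0.0641). Its groups did not overlap. Its hypoxia-induced relative Ndufa4l2 read 7.10, 6.78, 7.11 and 6.81 in the high arrays, against 7.37, 7.17, 6.88 and 7.12 in the low arrays (-0.19, limma adjusted p = 0.364). Ndufa4l2 was the one gene of the 52 to fall below the negative control median of its array, on 2 arrays, so its signal is near background.

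**Figure D4:**
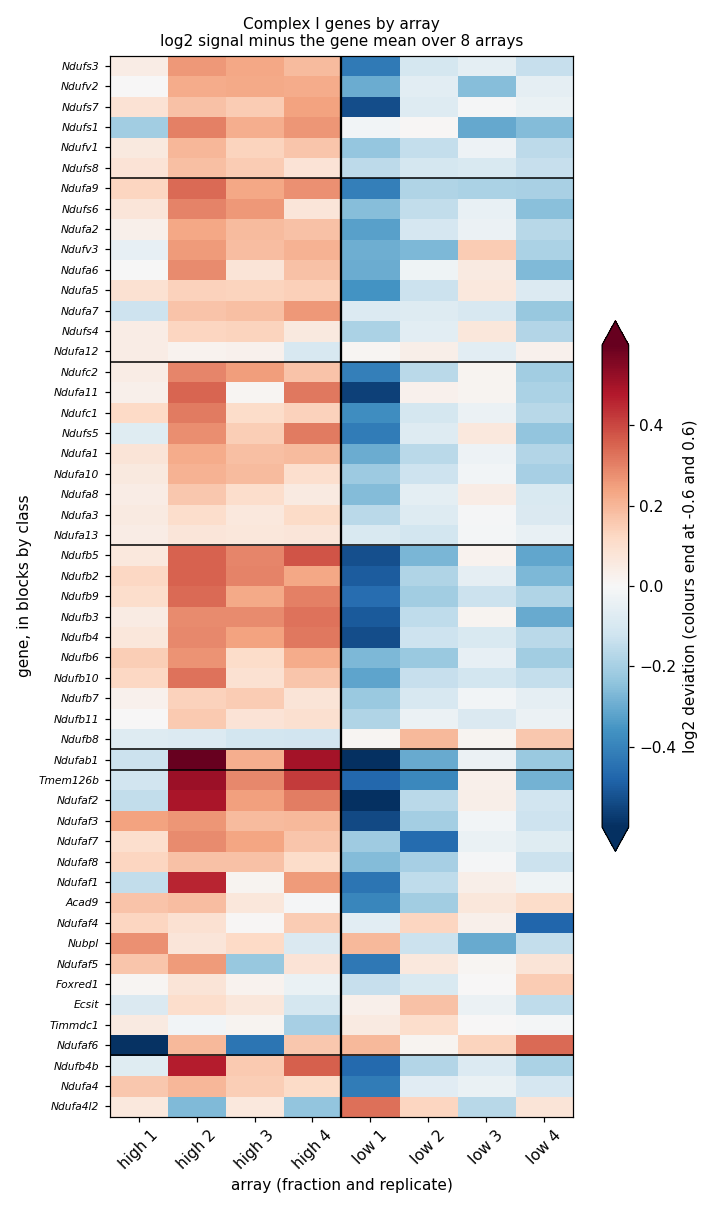
Log2 signal of each of the 52 complex I genes (rows, in blocks by class) in each array (columns, TMRM/MG-high on the left), minus the mean of that gene over the 8 arrays. Most rows are red in the high arrays and blue in the low arrays, and low replicate 1 is the lowest array in 40 of the 52 rows.

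Many of the genes ranked the arrays alike. Low replicate 1 was the lowest of all 8 arrays in 40 of the 52 genes, and high replicate 2 the highest in 30. High replicate 1 was the lowest high array in 34 genes. Measured from the mean of the low arrays, the median gene stood at 0.20, 0.39, 0.30 and 0.32 in high replicates 1 to 4, and at -0.14, 0.035, 0.13 and 0.0011 in low replicates 1 to 4. The fractions did not overlap on this measure, but low replicate 3 and high replicate 1 were only a short way apart. Without low replicate 1 the median difference of the 52 genes was 0.25, in place of 0.30. The 20 called genes lie on 14 chromosomes.

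Complexes II to V were measured on the same arrays. Of 38 structural genes, 11 rose and 0 fell by limma (25 higher and 0 lower at an unadjusted p under 0.05), or 28.9%, with a median difference of 0.24. For the 35 complex I subunits the figures were 42.9% and 0.33, and for all probe sets 5.28% and 0.0093. The difference between the complexes was not tested. Of 7 other measured factors that help complex I assembly or protein import, Aifm1, which drives the import of several subunits with Chchd4, rose by 0.47 (limma adjusted p = 0.0278). The other 6 were not called, with Chchd4 at 0.21, Tmem70 at 0.23 and Tmem186 at -0.059.

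Markers of other cells were measured on the same arrays. Over all probe sets, limma called 5.28% higher and 2.96% lower, and 15.3% and 10.1% at an unadjusted p under 0.05. Of 10 cDC1 markers, among them Xcr1 and Clec9a, 0 were called in either direction by limma (2 higher and 1 lower at an unadjusted p under 0.05). All 10 lay above the negative control median, and their mean level was 11.3 to 11.5 in high arrays, against 11.3 to 11.6 in low arrays. Of 13 plasmacytoid dendritic cell markers 11 rose (12 higher at that unadjusted threshold), with a mean level of 9.95 to 10.4 in high arrays, against 9.23 to 9.41 in low arrays. Of 9 T and NK cell markers 3 fell, 8 were lower at an unadjusted p under 0.05 and all 9 differences were below 0 (median -0.76), with a mean level of 8.89 to 9.47 in high arrays, against 9.24 to 10.1 in low arrays. Of 14 cell cycle genes 7 rose (12 higher unadjusted), at 10.39 to 10.55 in high arrays, against 10.01 to 10.23 in low arrays, and of 8 cDC2 markers 1 rose and 2 fell, at 9.28 to 9.76 in high arrays, against 9.29 to 9.69 in low arrays. Of 8 macrophage, monocyte and neutrophil markers 1 fell (3 lower unadjusted), at 9.90 to 10.2 in high arrays, against 10.3 to 10.5 in low arrays. Of 5 B cell markers 0 were called by limma, also at an unadjusted p under 0.05, at 9.86 to 10.2 in high arrays, against 9.88 to 10.3 in low arrays. No listed marker was at or under the negative control median on all 8 arrays. The part of these cell types and of the cell cycle in the complex I result was not tested.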

How the data were processed

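Per the submitters' processing notes, the deposited log2 signals were made by the authors with RMA in Affymetrix Expression Console 1.1, which corrects background, normalizes probes across arrays and summarises probe sets. Scanner files were not used here. Per the labels, total RNA was labelled with the Whole Transcript Plus kit. Of 28846 probe sets, 6640 controls were left out and 22206 tested, of which 19572 had 1 symbol in the platform annotation. Groups were compared without a block with limma 3.58.1 (lmFit, then eBayes; R 4.3.3), two-sided, with Benjamini-Hochberg adjustment over all 22206 and a threshold of 0.05. Where a gene had several probe sets, the brightest on average was used. The procedure was tested on simulated data. The members, classes, lists and alternatives were chosen with earlier results of these data known, and no gene list was tested as a set. All members are named. Values per array are given for called core genes, for the 4 smallest p in each other class, and for the members with the highest and lowest mean. Core genes that were not called, Ndufb8 and Ndufaf6 were added after their values were seen, as were the promoter windows printed. The number of arrays limits the precision. Figures were drawn with matplotlib 3.10.9.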

Additional observations from a re-analysis of the deposited data

Results flagged for a closer look

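Each of the 52 genes gave a set of 4 values in each fraction. In 13 of these 104 sets, the array at one end stood apart from the other 3 by more than Dixon's 95% limit. For a single set, chance alone gives about 1 in 20. The sets share the same arrays, and many genes ranked the arrays alike, so the count of 13 cannot be judged against that rate. Low replicate 1 was the array apart in 6, always on the low side: Ndufa9 (11.05, others 11.27 to 11.28), Ndufa4 (11.69, others 12.01 to 12.07), Ndufb4 (11.15, others 11.52 to 11.59), Ndufb10 (10.34, others 10.51 to 10.55), Ndufs7 (8.49, others 8.94 to 9.02) and Ndufaf5 (7.46, others 7.90 to 7.96). High replicate 1 was apart in 4, also on the low side: Ndufv2 (10.66, others 10.88), Ndufb3 (10.18, others 10.41 to 10.46), Ndufs1 (8.20, others 8.62 to 8.71) and Ndufa5 (12.01, others 12.05 to 12.06). The other 3 were Ndufc1 in high replicate 2 (11.43, others 11.22 to 11.25), Ndufa12 in high replicate 4 (11.75, others 11.87 to 11.89) and Ndufa7 in low replicate 4 (9.34, others 9.47 to 9.49).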

How the results depend on the processing

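The count of complex I genes called higher, 20 as reported, was 10 after quantile normalization, 13 after centring and 0 with the spike-in covariate, and 1 to 24 on leaving out an array. It was 19 to 29 under the other alternatives, and 0 were called lower under any alternative. Over all probe sets, 1173 higher and 658 lower became 1950 higher with an intensity trend and robust fit, 0 and 0 with the spike-in covariate (504 higher and 628 lower at an unadjusted p under 0.05), and 183 to 1680 higher and 218 to 793 lower on leaving out an array. Fewer arrays also give the test less power. With the spike-in covariate the median differences were 0.10 for the core, 0.085 for the matrix arm, 0.084 for the proximal and 0.125 for the distal membrane arm, 0.041 for assembly factors and 0.086 for all 52. With that covariate these genes changed sign, none called: Ecsit (0.0274), Foxred1 (-0.0967), Ndufa12 (0.0849), Ndufa4l2 (0.155), Ndufa7 (-0.0177), Ndufab1 (-0.118), Ndufaf1 (-0.22), Ndufaf2 (-0.236), Ndufb4b (-0.00147), Ndufs5 (-0.0607), Ndufv3 (-0.159), Timmdc1 (0.0884) and Tmem126b (-0.15). Ecsit was 0.020 with array weights. On leaving out an array Ecsit ranged from -0.063 to 0.047, Foxred1 from -0.0036 to 0.094 and Ndufa12 from -0.024 to 0.029. The causes were not tested. The replicate number as a block gave 19 rises among the 52 genes, 17 of them among the 20. Same-numbered arrays correlated at 0.271, 0.0548, 0.0152 and 0.0391 in their deviations from the group means, and not every array correlated best with its own number, so the numbers were not taken as pairs.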
